A study of Mus musculus with 4 samples.

Results

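Interferon regulatory factors (IRFs) are transcription factors that bind DNA through a conserved domain rich in tryptophan and act on interferon genes and on genes that interferons induce. This account covers 6 members of the family, Irf1, Irf2, Irf3, Irf5, Irf7 and Irf9, taken by symbol from the 38924 gene identifiers of the deposited count table. Each symbol matched 1 identifier, and all 6 passed the filter on low counts that left 14235 genes for testing. The members were chosen by family, with earlier results of these data known. They were measured by low-input RNA sequencing in regulatory T cells (Treg) of mouse spleen. Treg are CD4+ T cells that carry the transcription factor Foxp3 and restrain immune responses.

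The series compared activated Treg with resting Treg, 2 samples of each, all from independent animals. The labels call both populations CD4+ and Foxp3+ and print the same surface marker gate, low in CD44, for both. The sources used here do not give strain, age, sex, any treatment or the way Foxp3 was detected. The libraries are called activated A, activated B, resting A and resting B, where the letters are names and were not taken to pair libraries. Library totals lay between 20282062 and 31851982 counts. The T cell genes Cd3e and Cd4 were at 895.7 CPM or more in all 4 libraries, where CPM is the count relative to the scaled total of its library. Foxp3 was at 37.5 and 36.6 CPM in activated Treg, against 38.7 and 35.0 CPM in resting Treg. Cd44, a marker of the gate, was at 329 and 335 CPM in activated Treg, against 145 and 213 CPM in resting Treg. The groups did not overlap in Cd44. Markers of dendritic cells were higher in activated Treg, and markers of macrophages were high in activated A and resting A; their values are given beside the members below.

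In the pathway, sensors of foreign nucleic acid act through the kinase TBK1 and its relative IKKε, or through the adaptor MyD88, to activate IRF3, IRF5 and IRF7. IRF3 and IRF7 then drive the genes of type I interferon. Interferon that binds its receptor activates STAT proteins, which join IRF9 to form a complex that binds interferon-stimulated response elements. IRF1 is itself induced by interferon γ, and IRF2 binds the same DNA elements as IRF1 and can oppose it.

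The promoters of 3 members are printed because their sequence shows how the family's own genes differ in these elements. Irf5 is the member whose transcript differed most between the populations, and Irf1 and Irf2 are those with a match. Each window runs from 250 bases before to 50 bases after a RefSeq start site on GRCm38.p6. Capitals mark matches, on either strand, to the response element core GAAANNGAAA or to the STAT site TTCNNNGAA. The Irf5 window is chr6:29526375-29526674, plus strand. The Irf1 window is chr11:53769764-53770063, plus strand, with a STAT site that starts at position -90 from the start site. The Irf2 window is chr8:46739495-46739794, plus strand, with a response element core at -241 and a STAT site at -224.
Irf5: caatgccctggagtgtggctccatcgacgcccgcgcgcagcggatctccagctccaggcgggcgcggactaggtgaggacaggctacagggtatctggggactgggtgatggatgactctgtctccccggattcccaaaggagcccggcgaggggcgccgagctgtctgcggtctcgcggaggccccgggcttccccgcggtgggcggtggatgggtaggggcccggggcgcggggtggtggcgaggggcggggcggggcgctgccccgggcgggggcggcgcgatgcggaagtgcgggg
Irf1: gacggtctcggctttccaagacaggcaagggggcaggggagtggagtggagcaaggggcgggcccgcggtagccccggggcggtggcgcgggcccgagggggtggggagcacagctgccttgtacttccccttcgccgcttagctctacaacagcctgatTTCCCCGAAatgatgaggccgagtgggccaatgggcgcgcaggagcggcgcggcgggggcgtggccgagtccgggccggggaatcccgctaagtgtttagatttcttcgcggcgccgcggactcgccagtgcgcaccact
Irf2: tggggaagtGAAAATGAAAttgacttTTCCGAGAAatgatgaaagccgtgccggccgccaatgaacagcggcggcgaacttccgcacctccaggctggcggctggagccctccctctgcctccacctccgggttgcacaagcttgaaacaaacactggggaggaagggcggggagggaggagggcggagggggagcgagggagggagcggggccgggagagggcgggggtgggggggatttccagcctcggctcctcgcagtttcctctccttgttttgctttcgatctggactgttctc

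RefSeq gave 8 windows for the 6 members, since Irf1 and Irf9 have 2 start sites each. The response element core was matched in 1 of the 8 windows, and in 3.44% of the 32851 mouse promoter windows of this length. The STAT site was matched in 2 of the 8, and in 8.3% of all windows. Irf3, Irf5, Irf7 and Irf9 had no match in these windows. A match is a string of letters and not a shown binding site.

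Of the 6 members, Irf5 stood apart: its level was 3.19-fold higher in activated than in resting Treg, with a 95% interval from 2.03 to 5.01. The log2 fold changes of the other 5 lay between -0.21 and 0.04. By edgeR's quasi-likelihood test with Benjamini-Hochberg adjustment over all 14235 genes, 0 of 6 members were called, where edgeR called 0% of genes higher and 0% lower. At an unadjusted edgeR p under 0.05, 1 member was higher, where 6.3% of genes were, and 0 were lower, where 2.61% were. DESeq2 called 1 member higher, where it called 1.93% of the genes it tested higher, and 0 members lower, where it called 0.668% lower. Limma-voom called 0 members and 0% of genes, as did limma run on the regularized log values of the authors.

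**Figure D1:**
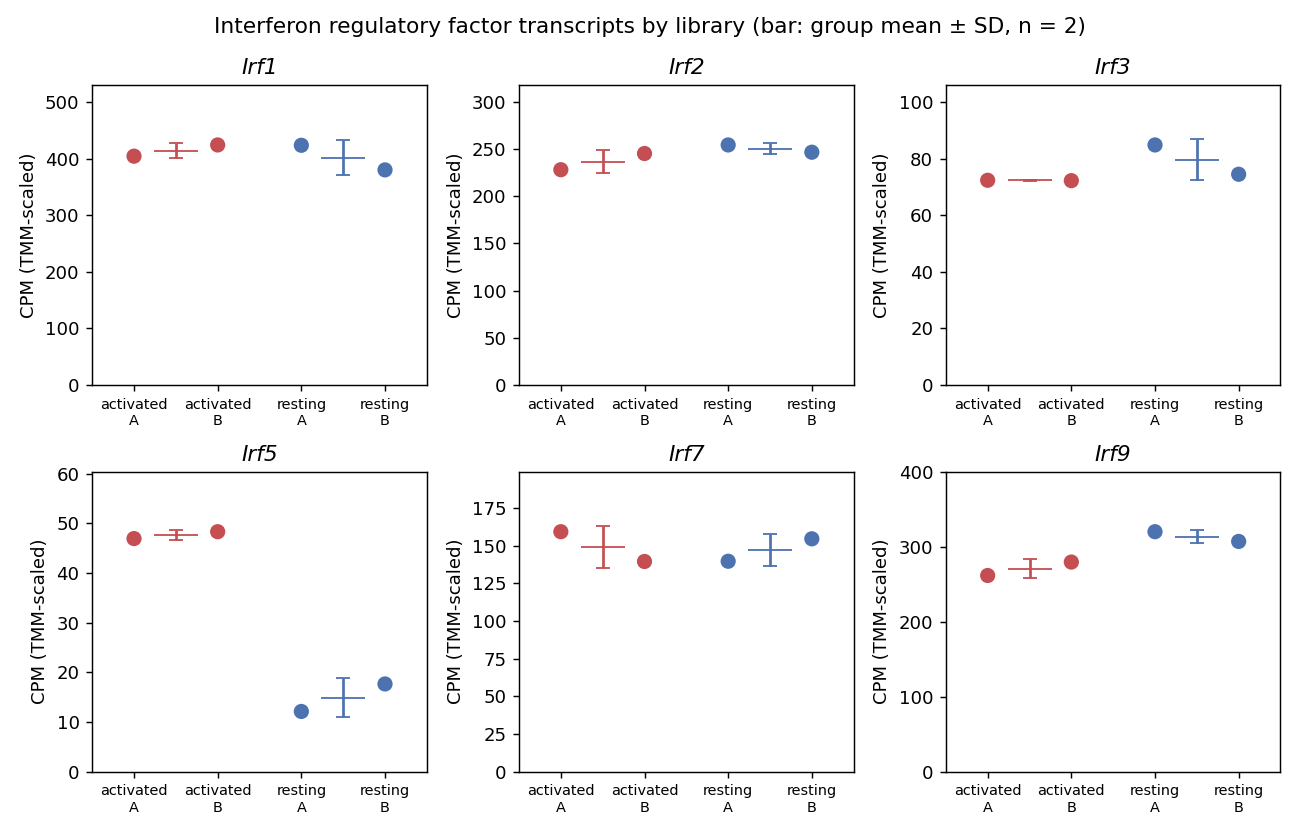
Level of each of the 6 members in CPM (TMM-scaled) in the 2 activated and the 2 resting libraries, with points for libraries and bars for the group mean ± SD (n = 2); each panel has its own axis from 0. The activated Irf5 points, at 46.9 and 48.3 CPM, lie above the resting points at 12.1 and 17.7 CPM, and the ranges of Irf1 and Irf7 overlap.

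Irf5, which acts downstream of Toll-like receptors and MyD88 and is best known from B cells, macrophages and dendritic cells, was at 46.9 and 48.3 CPM in activated libraries A and B, against 12.1 and 17.7 CPM in resting libraries A and B. Both activated libraries lay above both resting ones, and the lower activated library was 2.66 times the higher resting one. These levels rest on 1436 and 980 counts in activated Treg, against 250 and 542 counts in resting Treg. The means were 47.6 ± 0.977 CPM in activated and 14.9 ± 3.91 CPM in resting Treg (SD, n = 2 each). The log2 fold change was 1.67 ± 0.25 (SE). It did not pass by edgeR (adjusted p = 0.266, unadjusted p = 0.00114) and passed by DESeq2 (adjusted p = 5.40e-05). By unadjusted edgeR p, Irf5 ranked 54 of the 14235 genes. Its absolute log2 fold change was above that of 93.8% of tested genes.

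The authors' regularized log2 values of Irf5, which carry replicate numbers, were 10.09 and 10.14 in activated replicates 1 and 2, against 8.36 and 8.85 in resting replicates 1 and 2. Their difference was 1.51 on that scale, where limma gave an adjusted p of 0.191. The resting libraries differed more from each other than the activated ones. Without resting B, edgeR called Irf5 (log2 fold change 1.96, adjusted p = 0.0456); without resting A the log2 fold change was 1.42 (adjusted p = 0.0861). The Irf5 gene spans chromosome 6 from 29526625 to 29541871, plus strand (mm10, GENCODE M21). Its exons share 411 bases with exons of Tnpo3, a nuclear import gene on the opposite strand, and the sources used here do not give the strand setting of the counting. Tnpo3 was at 154 and 115 CPM in activated Treg, against 143 and 131 CPM in resting Treg, ranges that overlap.

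Most markers of dendritic cells were higher in activated Treg, the group in which Irf5 was also higher. Of 12 plasmacytoid dendritic cell markers, 12 were above 0 in log2 fold change and 10 had both activated libraries above both resting ones, where 19.8% of tested genes did. Their summed level was 1030 and 326 CPM in activated libraries A and B, against 140 and 128 CPM in resting libraries A and B. Siglech, a defining surface receptor of these cells, was at 279 and 58.7 CPM in activated Treg, against 0.777 and 0.261 CPM in resting Treg. Klk1 had 0 counts in resting B, where 3 counts correspond to 0.0978 CPM. The 7 markers of conventional dendritic cells summed to 199.8 and 49.3 CPM in activated Treg, against 31.5 and 8.05 CPM in resting Treg, and 6 of them did not overlap between the groups. Of these, Clec9a had 0 counts in resting B. Cd209a, the most abundant of them, was at 76.5 and 14.5 CPM in activated Treg, against 0.486 and 0.456 CPM in resting Treg.

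Between the activated libraries, the plasmacytoid markers were a median 3.69-fold higher in activated A than in activated B and the conventional ones 4.38-fold higher. Irf5 had a ratio of 0.971 between the same libraries. The 10 macrophage and monocyte markers summed to 682 and 84.5 CPM in activated libraries A and B, against 647 and 21.1 CPM in resting libraries A and B. Vcam1 was the most abundant of them, at 179 and 8.92 CPM in activated Treg, against 224 and 4.40 CPM in resting Treg. Lyz2, a lysozyme gene of myeloid cells in the same list, named after its values were seen, had 105 and 25.5 CPM in the activated libraries, against 11.7 and 2.15 CPM in the resting libraries. The groups overlapped in the other 9 genes of the list and not in Lyz2, which was 9.49-fold higher in activated Treg, at an unadjusted p of 0.0254 and an adjusted p of 0.45 by edgeR's quasi-likelihood test. Irf5 was lower in resting A, the resting library rich in these markers, than in resting B. The 12 measured B cell markers summed to 1368 and 2052 CPM in activated Treg, against 779 and 1003 CPM in resting Treg, most of it Ighm. Ighm itself, which encodes an antibody heavy chain, was at 1217 and 1821 CPM in activated Treg, against 715 and 889 CPM in resting Treg. The 5 neutrophil markers summed to 1.01 CPM at most, and S100a8 had counts in activated A alone. Cd8b1, a CD8 T cell gene, was at 64.4 and 31.1 CPM in activated Treg, against 26.7 and 24.7 CPM in resting Treg. The part of dendritic cell, macrophage or monocyte RNA in the Irf5 difference was not tested. In such bulk libraries, more cells of a type and more RNA per cell cannot be told apart.

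**Figure D2:**
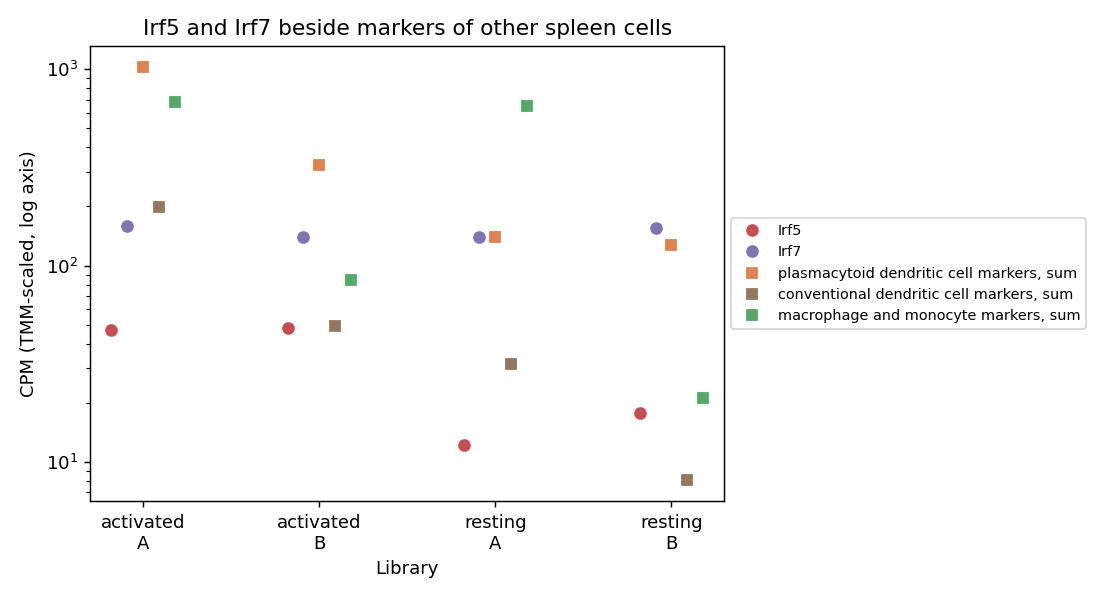
CPM (TMM-scaled, log axis) of Irf5 and Irf7 (circles) and the summed CPM of 3 marker lists (squares) in each library, with small sideways offsets for legibility. The plasmacytoid dendritic cell sum is 1030 and 326 CPM in activated A and B, where Irf5 is at 46.9 and 48.3 CPM.

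Irf3, the ubiquitous factor that TBK1 phosphorylates, was at 72.3 and 72.2 CPM in activated libraries A and B, against 84.8 and 74.5 CPM in resting libraries A and B. Both activated values were below both resting values, by a margin smaller than the gap between the resting libraries. Its log2 fold change was -0.14 ± 0.17 (SE; edgeR adjusted p = 0.961), with a 95% interval from -0.58 to 0.30; it was -0.05 without resting A and -0.24 without resting B. Irf3 lies on chromosome 7 from 44997648 to 45002848, plus strand, and shares 88 exon bases with Bcl2l12 on the opposite strand.

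Irf7, which amplifies type I interferon production and is itself induced by interferon, was at 159 and 139.5 CPM in activated libraries A and B, against 139.7 and 155 CPM in resting libraries A and B. The groups overlapped. The log2 fold change was 0.02 ± 0.18 (SE; edgeR adjusted p = 0.995), with a 95% interval from -0.43 to 0.47. Plasmacytoid dendritic cells are known for high Irf7. Irf7 was 1.14-fold higher in activated A than in activated B, where their 12 markers had a median ratio of 3.69, and resting B, with the lowest sum of these markers, had the second highest Irf7; the part of those cells was not tested. The sign of the fold change turned without resting A (-0.06), without activated A (-0.07) and with unfiltered genes (-0.01). Irf7 lies on chromosome 7 from 141262706 to 141266481 on the minus strand and shares 45 exon bases with Phrf1 on the opposite strand.

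Irf9, the DNA-binding partner of STAT proteins, was at 262 and 279.7 CPM in activated libraries A and B, against 320.2 and 307 CPM in resting libraries A and B. Both activated values were below both resting values, and the gap between the groups was wider than that within either. The log2 fold change was -0.21 ± 0.16 (SE; edgeR adjusted p = 0.889), with a 95% interval from -0.62 to 0.20, so the difference did not pass. Irf9 lies on chromosome 14 from 55603571 to 55610030, plus strand. It shares 123 exon bases with Rnf31 on the same strand, a ubiquitin ligase gene that was at 51.5 and 53.0 CPM in activated Treg, against 58.8 and 56.9 CPM in resting Treg.

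Irf1, the interferon γ-induced factor that drives class I antigen presentation genes, was at 405 and 424.5 CPM in activated libraries A and B, against 424.0 and 380.4 CPM in resting libraries A and B. The groups overlapped, with a log2 fold change of 0.04 ± 0.16 (SE; edgeR adjusted p = 0.994) and a 95% interval from -0.38 to 0.46. Its sign turned without resting B (-0.05). Irf1 lies on chromosome 11 from 53770014 to 53778374, plus strand, and shares 135 exon bases with the predicted gene Gm17334, which was at 2.61 CPM or less in all 4 libraries. Irf2, the factor that can oppose IRF1, was at 228 and 245 CPM in activated libraries A and B, against 254 and 246.5 CPM in resting libraries A and B. Both activated values were below both resting values, though activated B and resting B differed by little. The log2 fold change was -0.08 ± 0.16 (SE; edgeR adjusted p = 0.993), with a 95% interval from -0.49 to 0.33. It was -0.02 without activated A, -0.14 without activated B and -0.02 with library totals alone. Irf2 lies on chromosome 8 from 46739732 to 46847458, plus strand, and shares no exon bases with another annotated gene.

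Of the 6 members, 3 had both activated values below both resting values, where 17.4% of tested genes did. Irf5 alone had both above, where 19.8% of tested genes did. The median log2 fold change of the 6 was -0.03, beside -0.01 over all genes tested. It was -0.08 for the other 5 members, with Irf5 set aside after its value was seen. The 95% intervals of these 5 ran in all from 0.65-fold to 1.38-fold, activated over resting. Summed over the 6 members, the family was at 1173 and 1209 CPM in activated libraries A and B, against 1235 and 1181 CPM in resting libraries A and B.

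**Figure D3:**
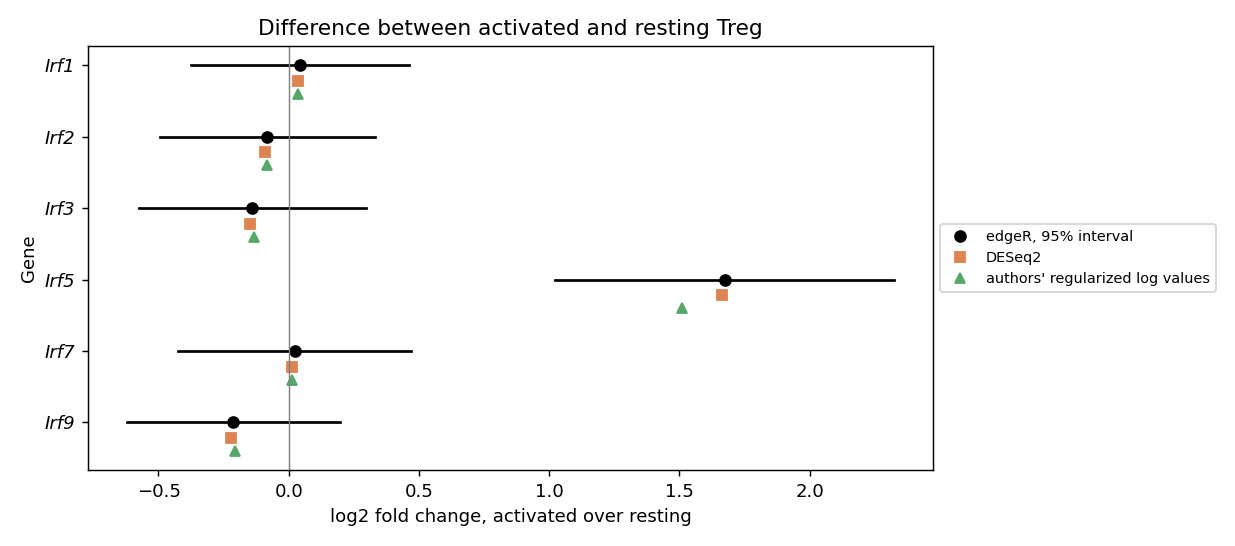
Log2 fold change, activated over resting, of the 6 members by edgeR with its 95% interval (black), by DESeq2 (orange squares) and as the difference of the authors' regularized log values (green triangles). Irf5 lies at 1.67, 1.66 and 1.51 by the 3 measures, and the edgeR intervals of the other 5 members include 0.

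Levels were compared between members only per length, as CPM divided by the kilobases of annotated exon (RPKM). In activated Treg the order was Irf1 at 104 ± 3.52, Irf9 at 50.3 ± 2.35, Irf7 at 39.6 ± 3.70, Irf2 at 31.99 ± 1.64, Irf3 at 20.998 ± 0.0276 and Irf5 at 16.4 ± 0.336 RPKM (SD, n = 2). The order was the same in resting Treg, where the means were 101 ± 7.74, 58.2 ± 1.70, 38.96 ± 2.79, 33.9 ± 0.736, 23.1 ± 2.13 and 5.13 ± 1.35 RPKM (SD, n = 2). No neighbours in either order overlapped between their libraries. With 2 libraries a group this was not tested. By CPM averaged over the libraries, Irf1 lay above 97.5% of the tested genes and Irf5 above 61.2%.

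The genes whose pattern over the 4 libraries was most like each member's were sought among 7001 well-expressed genes, as the root mean square difference of centred log2 CPM. For Irf5 they were Rnf43, a ubiquitin ligase gene (difference 0.0995), and Ccr6, a chemokine receptor gene (difference 0.147). Rnf43 was at 78.4 and 85.8 CPM in activated libraries A and B, against 24.6 and 31.4 CPM in resting libraries A and B. Ccr6 was at 77.5 and 60.6 CPM in activated Treg, against 17.4 and 27.4 CPM in resting Treg. Only Rnf43 lay within 0.1 of the Irf5 pattern. For the other members, 565 to 1007 genes lay within 0.1, so their nearest genes carry little information. These were Vps33a and Ppm1f for Irf1, Cops8 and Mrpl44 for Irf2, Inpp1 and Ppp1r7 for Irf3, Rnf220 and Ccdc43 for Irf7, and Eif1a and Nipsnap3b for Irf9.

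The genes around the IRFs were read as lists, whose direction was not tested. Among 20 sensors, adaptors and kinases upstream, 18 were tested. DESeq2 called 0, and so did edgeR, both after adjustment and at an unadjusted p under 0.05. Of all genes, DESeq2 called 1.93% higher and 0.668% lower. At that edgeR p, 6.3% of all genes were higher and 2.61% lower. Their median log2 fold change was -0.03, and it was above 0 without resting B (0.02), without activated B (0.05) and with library totals alone (0.04). Ikbke, the gene of IKKε, was at 186 and 174 CPM in activated libraries A and B, against 246.5 and 217 CPM in resting libraries A and B. Tmem173, the gene of the DNA-sensing adaptor STING, was at 335 and 439.7 CPM in activated Treg, against 302 and 329 CPM in resting Treg. Ddx58, the RNA sensor RIG-I, was at 146 and 126 CPM in activated Treg, against 174 and 159 CPM in resting Treg. The groups did not overlap in these 3 genes, and none of the 3 passed. Of the 18 tested genes, 2 had both activated values above both resting ones, where 19.8% of all tested genes did. Another 4 had both below, where 17.4% did. Neither Traf6 nor Slc15a4, an adaptor and a transporter of the Toll-like receptor route to IRF5, passed, with log2 fold changes of -0.55 ± 0.26 and 0.68 ± 0.35 (SE).

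Of 11 interferon receptor, JAK and STAT genes, 10 were tested, and edgeR and DESeq2 called 0. DESeq2 called 1.93% of all the genes it tested higher and 0.668% lower. At an unadjusted edgeR p under 0.05, 0 of 10 were higher, where 6.3% of all genes were, and 1 was lower, where 2.61% were. That gene was Ifngr2, a chain of the interferon γ receptor, at 49.3 and 32.2 CPM in activated libraries A and B, against 86.4 and 64.3 CPM in resting libraries A and B (log2 fold change -0.88 ± 0.29, SE; unadjusted p = 0.0268). Its partner chain Ifngr1 was at 385 and 362 CPM in activated Treg, against 311 and 351 CPM in resting Treg. Jak1 had a log2 fold change of -0.39 ± 0.18 and Tyk2 of 0.41 ± 0.22 (SE), neither past the threshold. The list's median was 0.05, and it was -0.15 without activated A and -0.01 without resting B.

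Of 10 genes for IRF2-binding proteins and brakes on interferon signalling, edgeR and DESeq2 called 0. DESeq2 called 1.93% of all the genes it tested higher and 0.668% lower. At an unadjusted edgeR p under 0.05, 0 of the 10 were higher and 1 was lower, against 6.3% and 2.61% of all genes. In log2 fold change 9 lay below 0, where 50.9% of all tested genes did. The lower gene was Usp18, a protease that removes ISG15 and blocks the type I interferon receptor, at 117 and 81.1 CPM in activated libraries A and B, against 177 and 148 CPM in resting libraries A and B. Its log2 fold change was -0.71 ± 0.24 (SE). Irf2bp2, a corepressor that binds IRF2, was the gene above 0, at 71.5 and 62.4 CPM in activated Treg, against 52.4 and 55.3 CPM in resting Treg. The list also held Socs3 (log2 fold change -0.27 ± 0.17), Ptpn2 (-0.33 ± 0.21) and Pias1 (-0.15 ± 0.23), which did not pass. The median was -0.18, and it was -0.11 with library totals alone.

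Genes that the complex of STAT proteins with IRF9 is known to induce were below 0 in log2 fold change in 21 of 26, where 50.9% of all tested genes were, with a median of -0.31 beside -0.01 over all genes. The median was -0.17 without activated B and -0.44 without activated A. EdgeR called 0 after adjustment, with 5 lower at an unadjusted p under 0.05, where 2.61% of genes were, and 0 higher, where 6.3% were. In 13 both activated values were below both resting values, where this held for 17.4% of tested genes. DESeq2 called 2 lower, where it called 0.668% of its tested genes lower, and 0 higher. These were Oas2, at 2.91 and 3.20 CPM in activated Treg, against 11.3 and 9.65 CPM in resting Treg (DESeq2 adjusted p = 0.00425), and Ifit3, at 33.4 and 26.5 CPM in activated Treg, against 50.9 and 68.0 CPM in resting Treg (DESeq2 adjusted p = 0.0486). Both encode antiviral proteins. The other 3 at an unadjusted edgeR p under 0.05 were Ifit1, Samhd1 and Oasl1, of which Oasl1 was named after its value was seen. Samhd1, a nucleotide hydrolase and the most abundant of the list, was at 685 and 674 CPM in activated Treg, against 926 and 969 CPM in resting Treg. Bst2 of this list is also a surface marker of plasmacytoid dendritic cells; named after its values were seen, it was at 149 and 79.3 CPM in activated Treg, against 54.6 and 71.1 CPM in resting Treg. Adar and Dtx3l, also abundant, had log2 fold changes of -0.14 ± 0.16 and -0.21 ± 0.19 (SE).

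A further list held 15 genes, mostly of class I antigen presentation and the immunoproteasome, that IRF1 or its partner NLRC5 is known to drive. It also held Nlrc5 itself, Cd274 and Gbp2. DESeq2 called 0 of the 15, and edgeR 0, also at an unadjusted p under 0.05. Of all genes, DESeq2 called 1.93% higher and 0.668% lower, and 6.3% and 2.61% were so at that edgeR p. The median log2 fold change of the 15 was 0.11, and it was -0.01 without activated B and 0.03 without resting A. B2m, the invariant class I chain, was at 5204 and 6009 CPM in activated libraries A and B, against 5485 and 5890 CPM in resting libraries A and B. H2-K1 and H2-D1, the heavy chains, had log2 fold changes of 0.17 ± 0.15 and 0.14 ± 0.15 (SE), and Gbp2, a GTPase of the interferon γ response, of -0.32 ± 0.16. Cd274, the gene of PD-L1, had a log2 fold change of 0.23 ± 0.23.

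**Figure D4:**
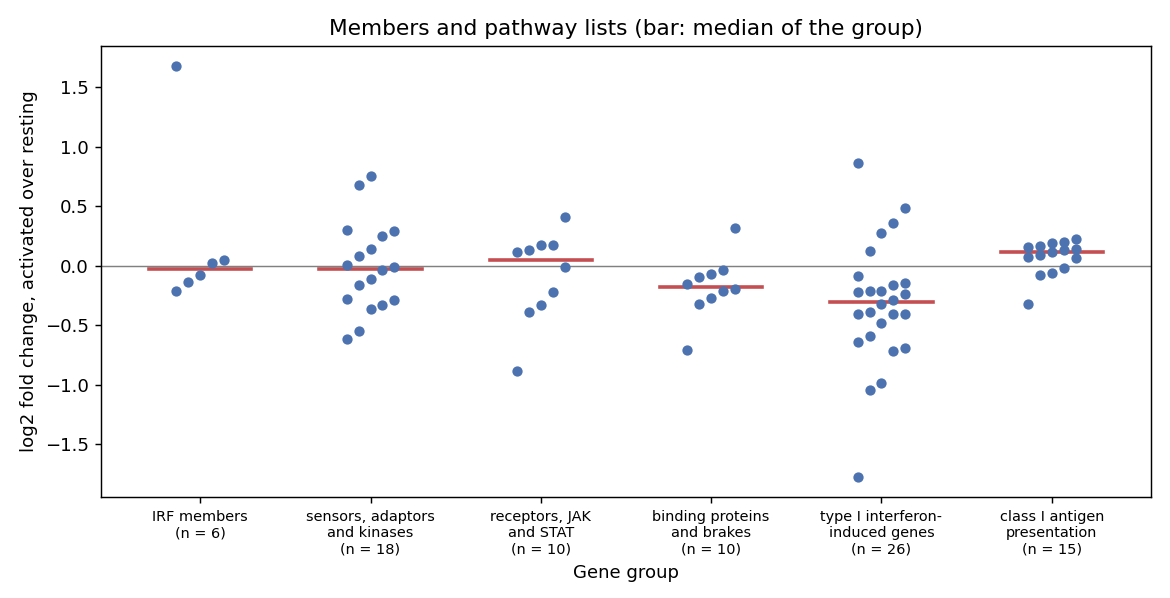
Log2 fold change, activated over resting, of each tested gene in the 6 members and 5 pathway lists, with the median of each group as a red bar. Irf5, at 1.67, lies above all points of these lists, and Oas2 is the lowest point among the interferon-induced genes.

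Of 13 interferon genes, 12 had an entry and 6 of them had 0 counts in all 4 libraries. A count of 0 allows a level of up to 0.098 and 0.148 CPM in activated libraries A and B, and of up to 0.146 and 0.0978 CPM in resting libraries A and B (3 counts per library, counting error only). Ifnb1, a direct target of IRF3 and IRF7, had 0 and 2 counts in activated A and B, against 0 and 0 counts in resting A and B. Ifnl3 had 0 and 4 counts in activated Treg, against 0 and 0 counts in resting Treg. Ifnk had 5 and 1 counts in activated Treg, against 2 and 1 counts in resting Treg. Ifng, the gene of interferon γ, was the 1 tested member, at 7.58 and 6.36 CPM in activated libraries A and B, against 1.70 and 2.09 CPM in resting libraries A and B. Its log2 fold change was 1.88 ± 0.38 (SE), which passed by DESeq2 (adjusted p = 0.0208) and not by edgeR (adjusted p = 0.29, unadjusted p = 0.004).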

How the data were processed

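RNA was measured in 2 activated and 2 resting Treg samples of mouse spleen, with libraries from a low-input kit per the labels' protocols. Named without roles in the submitters' processing notes are mm10, DESeq2, featureCounts and STAR 2.4.0c. The deposited counts are raw reads per gene, amplified by PCR with no molecular identifiers named; the deposited regularized log2 values come from DESeq2 per the submitters' processing notes. The sources used here do not give annotation, strand setting or read filters. By their headings, count columns could be tied to groups only, while regularized log columns carry replicate numbers. By value, A followed replicate 1 and B replicate 2 within each group in Irf1, Irf2, Irf5, Irf7 and Irf9. Irf3 did so in resting Treg only, its activated libraries being at 72.3 and 72.2 CPM. Irf7 in activated Treg, at 159 and 139.5 CPM, had regularized log2 values of 11.93 and 11.76.

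Counts were scaled by TMM, filtered with filterByExpr (minimum count 10, minimum total 15) and tested with edgeR 4.0.16 on group alone, adjusted over all 14235 genes at 0.05, with DESeq2 1.42.0, limma 3.58.1 (R 4.3.3) and other scalings, filters and left-out libraries as alternatives. SE is the log2 fold change over the root of edgeR's F; 95% intervals use its degrees of freedom. An exact two-sided permutation test of 2 against 2 libraries cannot go below p = 0.333, so none was run. The fitting was tested on simulated data. Symbols, positions and exon lengths came from GENCODE M21, which matched 37607 of 38924 identifiers. Members and lists were chosen with earlier results of these data known. Named genes were the members, the 3 most abundant and the 3 with the smallest p of each pathway list, fixed cell markers with the most abundant of each marker list, and the 2 genes nearest each member's pattern. Some genes that this rule or the lists hold are not reported here.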

Additional observations from a re-analysis of the deposited data

How the results depend on the processing

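The number of genes called by edgeR, 0 with all libraries, was 852 with unfiltered genes and 412 by DESeq2, and ranged from 0 to 370 when single libraries were left out: 0 without activated A and 62 without activated B, against 370 without resting A and 198 without resting B. Irf5 kept its direction in all 11 alternatives. Its log2 fold change was past the threshold with unfiltered genes (1.64), by DESeq2 (1.66) and without resting B, and ranged from 1.42 to 1.96 over left-out libraries; adjusted p over the alternatives ran from 4.84e-06 to 0.321. The cause of the gain with unfiltered genes was not tested. Irf1 ranged from -0.045 to 0.11 and Irf7 from -0.067 to 0.11 over left-out libraries, and Irf7 was -0.010 with unfiltered genes; Irf2, Irf3 and Irf9 kept their direction in all 11. A group left with 1 library was taken to vary like the other.

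The labels describe independent animals, so replicate numbers were not taken to pair samples. In limma on the regularized log values, the replicate block gave 1552 calls, against 0 without it, with Irf5 at 1.51 (adjusted p = 0.0003), and called no other member. Across genes, replicate 1 minus replicate 2 correlated with r = 0.652 between the groups. By their values, activated A and resting A, both rich in macrophage markers, matched replicate 1. The part of these markers in the correlation was not tested. Other scaling kept the median log2 fold change of all genes between -0.01 and 0.05.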
